A study of Mus musculus with 3 samples.

Results

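The genes described here encode the subunits of the mouse proteasome and of its regulators, together with the factors that assemble it. They were chosen by name as the protein-coding genes on chromosomes 1 to 19 of the GENCODE M21 annotation whose symbol starts with Psm, a letter from a to g and a digit. This gave 49 genes of 20807 protein-coding genes on these chromosomes. Psmd10, an assembly chaperone gene on the X chromosome, falls outside the rule. The rule also takes Psmc3ip, which was named for an interaction with Psmc3 and encodes a factor of meiotic recombination rather than a part of the proteasome.

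Setd1a binding was mapped by CUT & RUN, in which an antibody guides a nuclease to the chromatin that a protein occupies and the freed fragments are sequenced, in cultured quiescent adult neural stem cells (NSCs) at day 5. The cells came from the dentate gyrus of mice of 7 to 8 weeks with the alleles Hopx-CreERT2::Setd1afl/fl::H2B-GFP, and their genotype label is WT although the Setd1a alleles are floxed. In this line Cre is driven from the Hopx locus and needs tamoxifen to act. Quiescence was induced by removing EGF and adding BMP4 at 20 ng/ml with FGF2 at 20 ng/ml. The 2 Setd1a libraries and the IgG library share this genotype, time point and treatment. The study's culture scheme at day 2 adds lentivirus for Cre-GFP or for GFP alone, ahead of the harvest at day 5. Its account of CUT & RUN does not say which virus, if any, these WT cultures received. The values analysed were the positions of peaks present in both Setd1a replicates, of which the list held 6969. It gives no peak height and no value per replicate, and the read depth is unknown, so a gene without a peak is only a gene near which the list places none. Among marker genes of the cultured cell type, 6 of 8 NSC genes had a peak within 1000 bp of a transcription start site (TSS), Sox2, Nes and Vim among them, against 0 of 4 neuronal, 1 of 4 oligodendrocyte-lineage, 0 of 4 microglial and 0 of 3 endothelial genes. A peak is not a measure of expression, and expression was not measured in these libraries.

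The proteasome is the large protease that degrades proteins tagged with ubiquitin. Its barrel, the 20S core, has outer rings of alpha subunits, which gate the entrance, and inner rings of beta subunits, of which some carry the proteolytic sites. The 19S regulatory particle binds the barrel, recognises and deubiquitinates the substrate, and unfolds it with a ring of ATPases. In adult neural stem cells, protein degradation by proteasomes and lysosomes is part of how quiescent and activated cells manage their protein pool. Setd1a is the catalytic subunit of a complex that methylates lysine 4 of histone H3, a mark of active promoters, and CpG-rich promoters are a known site of such complexes.

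Of the 49 genes, 21 (42.9%, 95% Wilson interval 30.02% to 56.7%) had a Setd1a peak within 1000 bp of the TSS of any of their transcripts. Over all protein-coding genes of these chromosomes the same count was 4682 of 20807 (22.5%), which includes genes that are silent in these cells. The interval covers counting over genes only. A peak overlapped a TSS at 14 of the 49 genes (28.6%), against 17.2% of all protein-coding genes. Genes with a peak were therefore more frequent in this group than over the genome, by a factor of 1.90. The members that had one were spread over 11 of the 15 chromosomes that carry any. They included 4 of the 10 members on chromosome 11 and 4 of the 6 on chromosome 14. Of all protein-coding genes, 23.7% on chromosome 11 and 16.9% on chromosome 14 had a peak, and these differences were not tested.

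**Figure D1:**
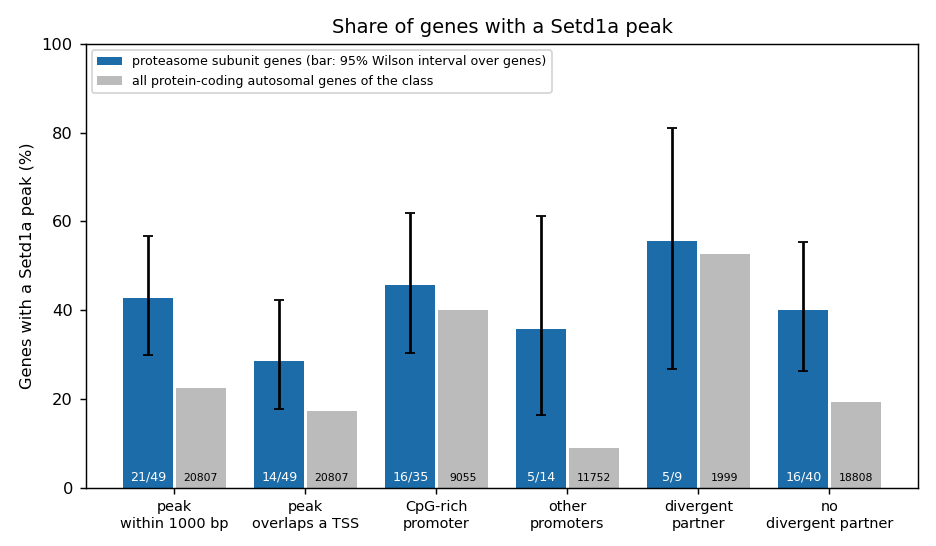
Share of genes with a Setd1a peak, in percent, for proteasome subunit genes (blue, with the 95% Wilson interval over genes) and for all protein-coding autosomal genes of the same class (grey); the numbers at the base give members with a peak over members, and the number of genes in the class. Over all promoters 42.9% of members had a peak against 22.5% of genes, and in the CpG-rich class 45.7% against 40.0%.

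The promoters printed first belong to members with a peak, and show the bases upstream of the main TSS in the direction of transcription. The main TSS is the start shared by the largest number of protein-coding transcripts of the gene, and on a tie the most upstream of them. Where each transcript has its own start, as at Psmc3 and Psmc6, this is the most upstream protein-coding start. They were read from the GRCm38 (mm10) reference. Capitals mark matches on either strand to the antioxidant response element TGACNNNGC, the ETS element CCGGAAG, the NRF1 element GCGCATGC, the YY1 element AAGATGGC or the cyclic AMP response element (CRE) TGACGTCA. Positions count from the main TSS, with the base before it at -1. Psmb2 lies at chr4:126677480-126677629 on the plus strand with a CRE at -23 to -16, and Psmc6 at chr14:45329588-45329787 on the plus strand with an antioxidant response element at -191 to -183 and an ETS element at -64 to -58. Psmc4 lies at chr7:28050102-28050251 on the minus strand and holds none of these motifs in the bases shown. Psmg1 lies at chr16:95990961-95991110 on the minus strand with an ETS element at -69 to -63. Psmc5 lies at chr11:106256080-106256153 on the plus strand with an NRF1 element at -36 to -29, and Psma2 at chr13:14613107-14613136 on the plus strand with a pair of overlapping NRF1 elements from -125 to -116. The Psma2 stretch is kept to 30 bases because it lies in an exon of its divergent neighbour Mrpl32.
Psmb2: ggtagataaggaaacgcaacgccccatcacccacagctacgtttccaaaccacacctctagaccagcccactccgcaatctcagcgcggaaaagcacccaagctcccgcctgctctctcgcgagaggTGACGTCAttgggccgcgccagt
Psmc6: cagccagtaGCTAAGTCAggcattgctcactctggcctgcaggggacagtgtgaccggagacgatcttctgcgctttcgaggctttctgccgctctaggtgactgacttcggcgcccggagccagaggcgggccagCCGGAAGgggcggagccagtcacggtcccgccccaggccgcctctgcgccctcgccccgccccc
Psmc4: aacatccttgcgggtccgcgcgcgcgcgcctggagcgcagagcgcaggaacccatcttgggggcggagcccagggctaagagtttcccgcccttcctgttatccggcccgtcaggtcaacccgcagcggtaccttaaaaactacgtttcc
Psmg1: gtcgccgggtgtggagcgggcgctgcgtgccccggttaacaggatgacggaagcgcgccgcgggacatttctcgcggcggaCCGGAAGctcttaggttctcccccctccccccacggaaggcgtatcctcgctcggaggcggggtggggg
Psmc5: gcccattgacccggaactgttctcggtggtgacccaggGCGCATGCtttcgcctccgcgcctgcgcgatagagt
Psma2: cccctcttGCGCATGCGCaagggtcaaaga

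The next promoters belong to members without a peak and are shown because they hold matches to the antioxidant response, ETS or YY1 element, which were found at members with and without a peak. Psmb5 lies at chr14:54618023-54618172 on the minus strand with an antioxidant response element at -20 to -12, and Psmb6 at chr11:70525236-70525385 on the plus strand with one at -38 to -30. Psmd7 lies at chr8:107588465-107588614 on the minus strand with an antioxidant response element at -126 to -118 and a YY1 element at -72 to -65. Psmd2 lies at chr16:20651502-20651651 on the plus strand with an ETS element at -26 to -20.
Psmb5: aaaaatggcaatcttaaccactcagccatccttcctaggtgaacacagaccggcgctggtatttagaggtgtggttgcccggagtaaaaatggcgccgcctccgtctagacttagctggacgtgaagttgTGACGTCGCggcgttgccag
Psmb6: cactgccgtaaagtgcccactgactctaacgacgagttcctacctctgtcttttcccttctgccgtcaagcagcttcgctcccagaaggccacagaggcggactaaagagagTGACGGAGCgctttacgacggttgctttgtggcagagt
Psmd7: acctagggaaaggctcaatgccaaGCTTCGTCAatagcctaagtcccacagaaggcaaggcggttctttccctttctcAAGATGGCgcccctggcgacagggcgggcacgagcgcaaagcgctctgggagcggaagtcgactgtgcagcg
Psmd2: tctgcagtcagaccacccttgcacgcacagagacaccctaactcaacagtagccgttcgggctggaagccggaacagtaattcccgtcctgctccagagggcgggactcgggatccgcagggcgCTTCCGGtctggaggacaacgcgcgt

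The groups by role that follow are small, and differences between them were not tested. Their counts stand beside the 22.5% of all protein-coding genes. In the outer ring of the 20S core, 5 of 8 alpha subunit genes had a peak: Psma2, Psma3, Psma5, Psma6 and Psma7. Psma1 and Psma4 had none within 1000 bp, and neither had Psma8, the alpha subunit of the testis-specific proteasome. The peak at Psma2 (chr13:14612990-14613530, 541 bp) reached from -250 to 290 bp relative to the main TSS and also covered the TSS of Mrpl32, which starts 75 bp away on the other strand. The peak at Psma7 (chr2:180042217-180042872, 656 bp) likewise covered the TSS of the divergent neighbour Ss18l1, and its midpoint lay nearer to that gene's TSS. Psma3 had the narrowest peak of all members (chr12:70974652-70974929, 278 bp), which began 31 bp past the main TSS. It covered the TSS of transcripts that are annotated as nonsense-mediated decay and retained intron, and a further TSS of the gene nearer to its midpoint. The peak at Psma5 (chr3:108256994-108257388, 395 bp) lay wholly downstream, from 68 bp to 462 bp after the TSS, in the first part of the gene, where 283 of its bases are annotated as UTR. Psma6 stood apart from the other alpha genes. Its peak (chr12:55398388-55398718, 331 bp) lay in an intron, 57 bp before the TSS of a shorter protein-coding transcript that starts 14553 bp inside the gene, and no peak lay within 1000 bp of the main TSS.

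Of the inner ring, 2 of 7 constitutive beta subunit genes had a peak, Psmb2 and Psmb3, which encode structural subunits without a proteolytic site. The peak at Psmb2 (chr4:126677327-126677812, 486 bp) covered the TSS. Psmb3 was the only member with more than 1 peak: 1 of 429 bp over the TSS (chr11:97703362-97703790) and another of 452 bp upstream of the gene (chr11:97702587-97703038), whose nearer edge lay 361 bp before the TSS. Psmb1 and Psmb4, the other structural beta subunits, had none.

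None of the 3 genes for the constitutive catalytic subunits had a peak, against 22.5% of all protein-coding genes. A count over 3 genes is too small to be told apart from that share. For Psmb5, which carries the chymotrypsin-like site, the nearest peak lay 14398 bp from a TSS (chr14:54603162-54603610, 449 bp). For Psmb6, the caspase-like subunit, it lay 72998 bp away (chr11:70451884-70452369, 486 bp). For Psmb7, the trypsin-like subunit, it lay 292973 bp away (chr2:38350698-38350947, 250 bp), the largest distance among the members.

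Among the interferon-inducible and thymic beta subunits, Psmb9 alone had a peak, and Psmb8, Psmb10 and Psmb11 had none. Psmb9 is the inducible counterpart of Psmb6, and its peak (chr17:34187163-34187652, 490 bp) lay inside the gene, 112 bp from the main TSS, and covered the TSSs of shorter transcripts. It also covered a TSS of Tap1, a peptide transporter gene of antigen presentation, whose divergent start lies 38 bp from that of Psmb9. The same peak was the nearest to Psmb8, the inducible counterpart of Psmb5, at 10069 bp. For Psmb10, the inducible counterpart of Psmb7, the nearest peak lay 12319 bp away (chr8:105950763-105951103, 341 bp). For the thymic Psmb11 it was the same interval as for Psmb5, 17823 bp from its TSS. Over the whole 20S core, inducible and thymic genes included, 8 of 19 genes had a peak.

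Of the 6 ATPase genes of the 19S particle, whose products form the unfolding ring, 4 had a peak: Psmc3, Psmc4, Psmc5 and Psmc6. These included some of the widest peaks of the group, at Psmc6 (chr14:45329530-45330334, 805 bp) and Psmc3 (chr2:91053753-91054461, 709 bp), both over the main TSS. The peak at Psmc4 was 522 bp wide and reached from -504 to 17 bp relative to a TSS. At Psmc5 (chr11:106255584-106256103, 520 bp) the peak ended 51 bp before the TSS and covered the TSS of the divergent Ftsj3, a ribosome biogenesis gene, whose start lies 75 bp from that of Psmc5. Psmc1 and Psmc2 had no peak within 1000 bp. Psmc2 was the member nearest outside the limit, with a peak of 333 bp inside the gene, 1145 bp after its TSS (chr5:21786428-21786760). At 3000 bp it was the single member gained, and the next one lay more than 10000 bp away. On the inner side of the limit, the upstream peak of Psmb3 at 361 bp was the farthest.

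Of the 11 non-ATPase genes of the 19S particle, 4 had a peak: Psmd1, Psmd3, Psmd6 and Psmd8. Psmd1, which encodes a large scaffold subunit, had the widest peak of all members (chr1:86064396-86065299, 904 bp). It was wider than 85.2% of the peaks at protein-coding genes. Psmd8 followed with 677 bp (chr7:29180445-29181121), reaching from -640 to 36 bp relative to a TSS it covered. The peak at Psmd6 was 433 bp wide and covered the start of a retained-intron transcript. The peak at Psmd3 (chr11:98682073-98682528, 456 bp) ended 26 bp before the TSS and overlapped no exon of the gene. Psmd2, the other large scaffold subunit, had none, and its nearest peak lay 13314 bp away. Also without a peak were Psmd4, a ubiquitin receptor, Psmd14, the deubiquitinase of the particle, its partner Psmd7, and Psmd11, Psmd12 and Psmd13, subunits of the lid.

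**Figure D2:**
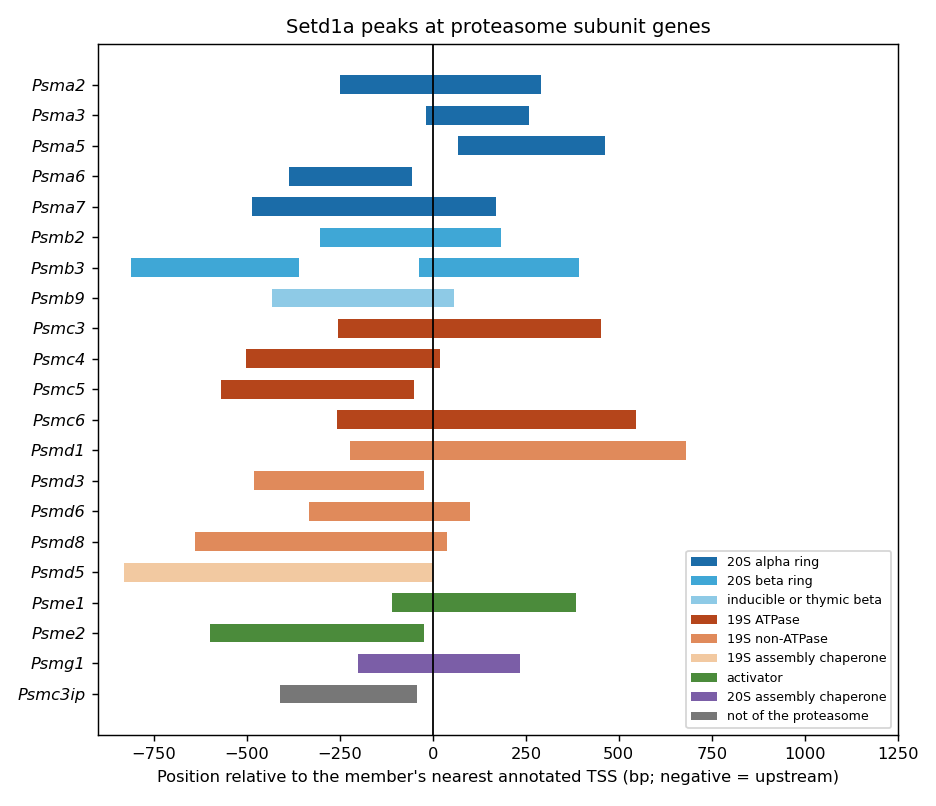
The 22 Setd1a peaks at the 21 members that have one, drawn to scale along the distance in bp from the nearest annotated TSS of that member (vertical line, set to the TSS of lowest coordinate where a peak covers several; negative values are upstream in the direction of transcription), coloured by the role of the gene product. At 14 members a peak crosses the line; the peaks of Psma6, Psmc5, Psmd3, Psmd5, Psme2 and Psmc3ip lie wholly upstream of it and that of Psma5 wholly downstream.

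Outside the 20S core and the 19S particle, 5 of 13 members had a peak. Psmd5, a chaperone that assembles the ATPase ring, had a peak of 830 bp that ended 1 bp before the main TSS (chr2:34870963-34871792). Most of it, 685 bp, lies in exons of longer transcripts of the same gene, which start farther upstream. The other chaperone of that ring in the group, Psmd9, had none. Psme1 and Psme2, which form an interferon-inducible activator and lie near each other on chromosome 14, each had a peak. That of Psme1 covered a TSS (chr14:55578249-55578745, 497 bp), whereas that of Psme2 ended 24 bp before it (chr14:55591137-55591712, 576 bp) and covered the TSS of the divergent Rnf31, a ubiquitin ligase gene. Psme3 and Psme4, which encode nuclear activators, had none, nor did Psme2b, an intronless copy of Psme2, or Psmf1, a proteasome inhibitor. Psme2b closely resembles Psme2 and only uniquely mapped reads were kept, so peak status in the stretch they share is uncertain at both.

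Of the assembly chaperones of the 20S core, Psmg1 had a peak over its TSS (chr16:95990658-95991091, 434 bp), and Psmg2, its partner, Psmg3 and Psmg4 had none. Psmc3ip had a peak of 368 bp that ended 43 bp before its TSS (chr11:101095479-101095846). Without the members that are not part of the 20S core or the 19S particle, 16 of 36 genes had a Setd1a peak.

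Peak width at the members ranged from 278 to 904 bp over 22 peaks. Its median was 493.5 bp, and the middle part of the peaks lay between quartiles at 433.25 and 636 bp. Over the 4270 peaks at all protein-coding genes the median was 526 bp with quartiles at 365.25 and 761 bp. The middle parts of these distributions overlapped, and no peak at a member reached 1000 bp. The widest were those of Psmd1, Psmd5, Psmc6, Psmc3 and Psmd8, all genes of the 19S particle or its chaperone, and the narrowest were those of Psma3, Psma6 and Psmc3ip. The width is that of the joined interval and was not measured per replicate.

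**Figure D3:**
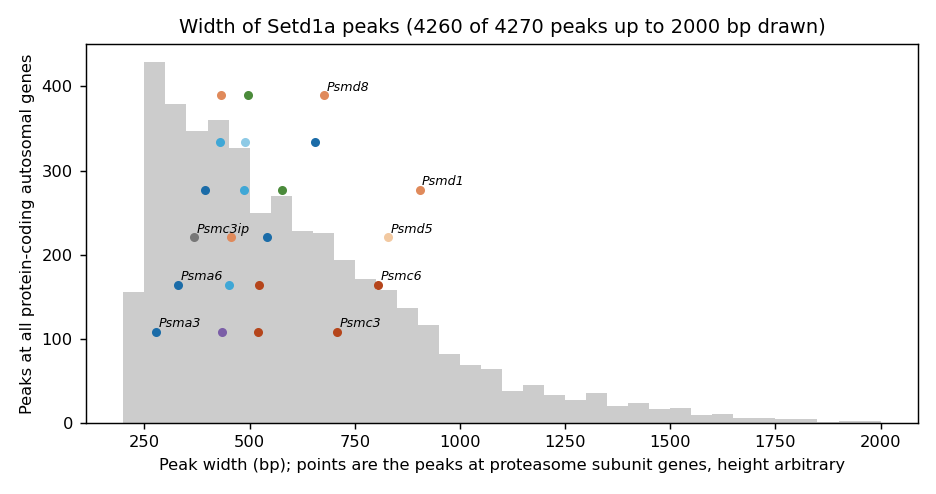
Widths in bp of the Setd1a peaks at all protein-coding autosomal genes (grey histogram, number of peaks per bin) and of the 22 peaks at proteasome subunit genes (points, coloured by role as in the plot of peak positions; the vertical position is arbitrary). The members' peaks run from 278 to 904 bp, with the 3 narrowest and the 5 widest named.

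Relative to the main TSS, the midpoint of the peak lay upstream at 11 of the 21 pairs of a member and a peak within 1000 bp of that start (52.4%), against 46.4% over 4446 pairs at all protein-coding genes. The median midpoint lay at -61 bp at the members, within a range of -587 to 357 bp, and at 26.5 bp over all genes. Among genes with a peak, the peak overlapped a TSS at 66.7% of members and at 76.3% of all genes. By annotation of the members, 41.7% of the bases in their peaks lay outside the gene, 17.4% in UTRs, 8.64% in coding sequence, 16.0% in other exons and 16.2% in introns.

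Some of the peaks could not be given to a member alone. A TSS of another protein-coding gene lay within 1000 bp of 5 of the 22 peaks: Mrpl32 at Psma2, Ss18l1 at Psma7, Tap1 at Psmb9, Ftsj3 at Psmc5 and Rnf31 at Psme2. Each of these neighbours is transcribed from the opposite strand, and at least 1 TSS of each lay under the peak. The midpoint of the peak was nearest to a TSS of the member itself at 17 of the 21 members. The exceptions were Psma7, Psmc5 and Psme2, where the coding neighbour was nearer, and Psma5, where the noncoding 1700010K24Rik was. Divergent pairs, with a protein-coding partner starting within 1000 bp on the other strand, comprised 9 members, of which 5 had a peak (55.6%), against 52.7% of all genes with such a partner. The pairs without a peak were Psmb1 with Tbp, Psmc2 with Dnajc2, Psmd13 with Sirt3 and Psmg2 with Cep76. Of the 40 members without a partner, 16 had a peak (40.0%), against 19.3% of all genes without one.

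Promoter composition was taken over 250 bp before to 50 bp after the main TSS, and a promoter was called CpG-rich where GC made up at least 50% of its bases and the CpG ratio, observed over expected, was at least 0.6. By this measure 35 of the 49 members (71.4%) had a CpG-rich promoter, against 43.5% of all protein-coding genes. Within that class, 16 of 35 members had a peak (45.7%, Wilson interval 30.5% to 61.8%), close to the 40.0% of all genes of the class. Of the 14 members without a CpG-rich promoter, 5 had a peak (35.7%, 16.3% to 61.2%), against 8.99% of all such genes. These were Psma3, Psma6, Psmd3, Psmd6 and Psme2. Psma3 lay just under both limits, with a GC content of 49.3% and a CpG ratio of 0.550. Psmd6 missed the limit of GC content alone, at 48.0% with a CpG ratio of 0.872. Psmd3 and Psme2 missed the CpG limit with ratios of 0.577 and 0.581. At Psma6 the main promoter, with a ratio of 0.185, is not the one beside the peak. The 11752 protein-coding genes without a CpG-rich promoter include 8348 with a CpG ratio below 0.4, of which 5.10% had a peak. Of members below 0.4, 1 of 5 had one, which was Psma6. From 0.4 to 0.6 a peak lay at 16.5% of all genes and at 3 of 7 members.

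Composition did not separate the members with a peak from those without. The median CpG ratio was 0.80 over the 21 with a peak and 0.758 over the 28 without, and the median GC content was 58.0% and 55.3%. Over all protein-coding genes the medians were farther apart, at 0.816 with a peak and 0.412 without. Psmg2 and Psmc2 had no peak at GC contents of 73.3% and 70.0% and CpG ratios of 1.14 and 0.984. In all, 19 members with a CpG-rich promoter had none. The peaks themselves had a median GC content of 59.1% at the members and 63.5% at all protein-coding genes, and a median CpG ratio of 0.752 and 0.814.

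**Figure D4:**
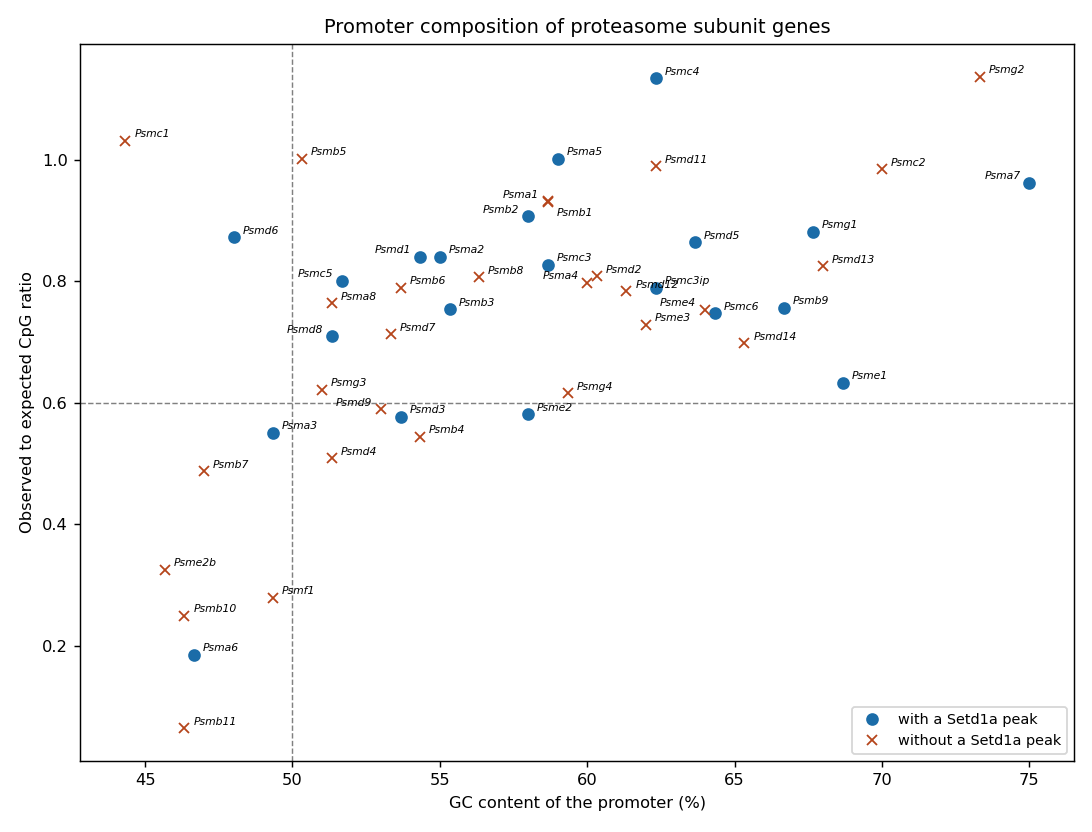
GC content in percent and observed to expected CpG ratio of the promoter (250 bp before to 50 bp after the main TSS) of each of the 49 proteasome subunit genes, with blue circles for the 21 with a Setd1a peak and red crosses for the 28 without; dashed lines mark the limits of the CpG-rich class at 50% and 0.6. Circles and crosses mix across the CpG-rich area at the upper right, where 16 of 35 genes are circles.

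The 28 members without a peak were mostly far from any. Their nearest peak lay at a median distance of 57822.5 bp, from 1145 bp at Psmc2 to 292973 bp at Psmb7, and lay over 10000 bp away at 27 of them and over 50000 bp away at 16. For all protein-coding genes without a peak the median was 89545 bp. Psmc2 was also the single member with a peak inside the gene but more than 1000 bp from its TSSs. This is the same peak at 1145 bp.

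**Figure D5:**
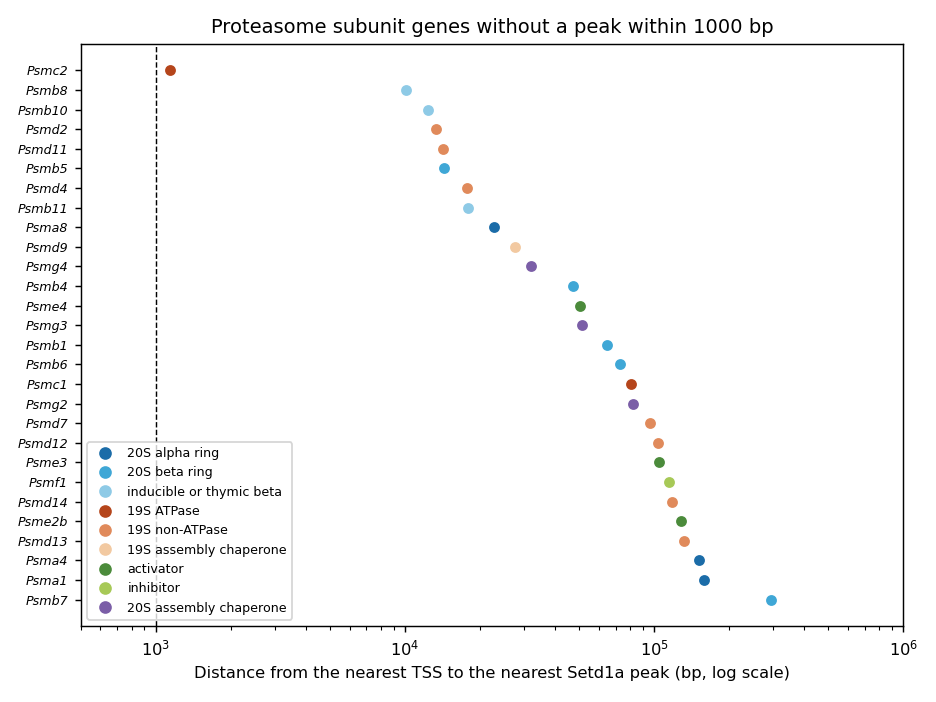
Distance in bp, on a log scale, from the nearest TSS to the nearest Setd1a peak for each of the 28 proteasome subunit genes without a peak within 1000 bp (dashed line), coloured by role. Psmc2 lies just past the line at 1145 bp, and the other 27 genes lie beyond 10000 bp.

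The same promoter windows were searched on both strands for motifs of factors known to act at housekeeping promoters. A match is a description of the letters and not of binding. Each share of members is set beside the share of all promoters and of CpG-rich promoters, the class that holds 35 of the 49 members, and each count of matched members with a peak beside the share of all matched promoters that had one.

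The antioxidant response element TGACNNNGC, through which Nfe2l1 raises proteasome genes when the proteasome is inhibited, was found at 7 members (14.3%), against 12.6% of all promoters and 15.0% of CpG-rich ones. These were Psmb2 and Psmc6, which had a peak, and Psmb5, Psmb6, Psmd7, Psmd12 and Psmd9, which had none. Of all promoters with this match, 26.1% had a peak, so the split among the 7 members was close to that of the genome. In the Psmb2 promoter the match starts at the last base of the stretch printed above and runs to 7 bp past the TSS. The ETS element CCGGAAG was found at 17 members (34.7%), against 11.2% of all promoters and 20.1% of CpG-rich ones. Of these members 5 had a peak and 12 had none, and 37.1% of all matched promoters had one.

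The NRF1 element GCGCATGC is a different element from the antioxidant response element through which Nfe2l1 acts. It was found at 4 members (8.16%), Psma2, Psmc3, Psmc5 and Psmg1, against 3.45% of all promoters and 6.39% of CpG-rich ones. All 4 had a peak, as did 45.0% of all promoters with a match. At Psma2 the promoter held 4 matches, of which the overlapping pair is printed above. The YY1 element AAGATGGC was found at 6 members (12.2%), against 3.07% of all promoters and 5.01% of CpG-rich ones. Psma2 and Psmc5 had a peak and Psmb5, Psmb6, Psmd7 and Psmd11 had none, and 40.9% of all promoters with this match had one.

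The SP element GGGCGG was found at 29 members (59.2%), above the 44.6% of all promoters but below the 76.4% of CpG-rich ones. Of these members 14 had a peak and 15 had none, and 33.9% of all matched promoters had one. CCAAT was found at 16 members (32.7%), against 38.5% of all promoters and 37.2% of CpG-rich ones, 8 with a peak and 8 without, and 24.6% of all matched promoters had one. TATAAA was found at 4 members (8.16%), below the 12.7% of all promoters but above the 4.80% of CpG-rich ones. Psmd1 and Psmd6 had a peak and Psma8 and Psmb4 had none, and 9.75% of all matched promoters had one. The CRE TGACGTCA was found at Psmb2 with a peak and at Psmb8 without one (4.08%, against 2.42% of all promoters and 4.08% of CpG-rich ones), and 39.6% of all matched promoters had a peak. The element ACTACAA, part of the sites of ZNF143 and Ronin, was found at Psmd11 alone, which had no peak (2.04%, against 3.82% and 3.71%), and 27.3% of all matched promoters had one. The antioxidant response element and the CRE share their first letters, but matches to the sequences searched cannot overlap. At Psmb2, which held both, the CRE lay at -23 to -16 and the antioxidant response element at -1 to 7.

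Of 27 other genes of the ubiquitin-proteasome pathway, 15 (55.6%) had a peak within 1000 bp of a TSS. The share was 22.5% over all protein-coding genes and 40.0% over those with a CpG-rich promoter. These 27 genes were chosen with earlier results of these data known, so the comparison is a description only. Among proteins that join or help the particle, Adrm1, a ubiquitin receptor, Uchl5, the deubiquitinase it binds, and the ligase gene Ube3c had one, 3 of 9 in all. The chaperone gene Pomp and the subunit gene Sem1 had none, with the nearest peak 429802 and 623745 bp away. Of 4 genes for the transcriptional control of the proteasome, the factors Nfe2l1 and Nfe2l2 had a peak, and Ddi2 and Ngly1, which process Nfe2l1, had none. The peak of Nfe2l1 was 256 bp wide and lay 37 bp from a TSS, and that of Nfe2l2 was 483 bp wide and lay 703 bp away. Genes for shuttle factors and related proteins that bring substrates to the proteasome had a peak in 5 of 6 cases, Rad23b and Zfand5 among them. Of the ubiquitin and E1 genes 3 of 5 had one, Ubb among them, and of the unfoldase genes Vcp and Ufd1, 2 of 3. Several of these peaks exceeded the 904 bp of Psmd1, with 1403 bp at Ube3c, 1168 bp at Rad23b, 1142 bp at Zfand5 and 1060 bp at Vcp.

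Set beside other gene families named by the same kind of rule, the share of proteasome genes was near that of cytosolic ribosomal protein genes, of which 39 of 92 (42.4%, Wilson interval 32.8% to 52.6%) had a peak. It was 28 of 78 (35.9%, 26.1% to 47.0%) for mitochondrial ribosomal protein genes and 45 of 127 (35.4%, 27.7% to 44.1%) for deubiquitinase and F-box protein genes. The intervals of all 4 families overlap, and the differences between them were not tested. CpG-rich promoters made up 68.5%, 79.5% and 63.0% of these families.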

How the data were processed

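CUT & RUN libraries of 2 Setd1a replicates and 1 IgG control were used by the authors. As the study's methods and processing notes state, the authors trimmed reads with Trimmomatic 0.32, mapped them uniquely to mm10 with Bowtie2 2.1.0, filtered low mapping quality with SAMtools 0.1.18, called peaks per replicate with MACS2 2.2.8 at default settings and kept peaks found in both. The deposited values are peak start and end in bp. Whether IgG was the control in calling, and how intervals were joined, is not given in the sources used here. The depth is unknown.

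From these positions, distances were computed with Python 3.11.15 from a peak's nearer edge to each GENCODE M21 TSS, and were 0 where the peak covered it. Sequence was read with pysam 0.24.0 and samtools 1.23.1 from GRCm38, whose chromosome lengths contain all peaks used. Figures were drawn with matplotlib 3.10.9. The search for peaks near a TSS was run on 400 simulated intervals, and for 400 it matched a direct calculation over the gene's TSSs. Both used the same distance function, so that function itself was not checked. Members, gene lists and motifs were chosen with earlier results of these data known, so no tests were made and counts are descriptions beside all protein-coding genes. Each member is named with its peak status. Positions are given for the 5 widest and 3 narrowest peaks, the catalytic beta genes and their counterparts, peaks that cover no TSS, members with several peaks, those nearest the limit and members outside the 20S core and 19S particle. Other positions, and genes outside these groups, were added for context. Some genes of the lists are not reported here by name. Alternatives changed the window (0, 500 and 3000 bp), the TSS set, the peak assignment, the minimum width (300 bp), merging of peaks, the CpG limit (0.75) and the promoter window.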

Additional observations from a re-analysis of the deposited data

How the results depend on the processing

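Every count and median given as a main result stayed within 1.5 times its value under each alternative tried. The number of members with a peak ran from 14, with a peak over the TSS required, to 22 at 3000 bp. It was 21 at 500 bp and with protein-coding or basic transcripts alone, 20 with peaks of at least 300 bp (without Psma3), 19 with the 5′ end of the gene record alone (without Psma6 and Psmd5) and 17 with each peak given to its nearest TSS (without Psma5, Psma7, Psmc5 and Psme2). The share of members over that of all protein-coding genes ran from 1.66 to 2.05. With a CpG ratio of at least 0.75, 13 of 27 members and 43.8% of all genes of the class had a peak. No paired analysis was possible because the deposited list joins both Setd1a replicates, so neither could be left out and no replicate block could be fitted. Depth and peak height are unknown, which leaves weak binding at members without a peak unmeasured.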
